A study of Mus musculus with 4 samples.

Results

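Resident peritoneal macrophages from CD163-deficient C57BL/6 mice were compared with wild-type C57BL/6 cells, both cultured without lipopolysaccharide (LPS), the endotoxin of Gram-negative bacteria. The genes described are the 12993 of 30222 genes named on the array whose level was -2 or more on both arrays. A level is the log2 of the probe's processed intensity minus the log2 of that array's 75th percentile, so that 0 stands for the percentile, and the brightest probe stands for a gene. A difference is the CD163-deficient level minus the wild-type level, and 1 on this scale is 2-fold. The cells were kept for 2 days in medium with serum. The same 2 genotypes were also cultured with LPS at 100 ng/mL for 1 day, and those 2 arrays, which share no array with the comparison, are given beside it. Each of the 4 groups was 1 array, which leaves no replicate check, and "higher" or "lower" is said of those arrays alone. The labels say neither which part of the gene was deleted, nor how many mice were pooled, nor whether the cultures with and without LPS came from the same mice.

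CD163 is a scavenger receptor of macrophages. It binds the complex of haptoglobin and haemoglobin and carries it into the cell, where haem is broken down and its iron is stored or exported. Resident macrophages of the abdominal cavity are a long-lived population that depends on the transcription factor GATA6, and they are known for clearing dying cells and for plugging injured surfaces of the cavity with clotting factors.

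The 75th percentile of intensity was 910 in wild-type cells and 1258 in CD163-deficient ones, and 24721 and 25710 genes were well above background. Bright probes spotted 10 or more times on the array (196 probes) had a median SD of 0.081 and 0.095 (log2) between spots. The scanner software's own error estimates gave a median error of 0.20 for the difference of 1 gene. Both errors cover the measurement inside an array and not the spread between cultures or mice.

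Cd163 was dim on all 4 arrays, so it missed the level rule and the array gives little check of the genotype. Its 1 probe (mm9, chromosome 6, 124270436 to 124270495, position 2610 of the transcript) had a level of -5.47 in wild-type cells and -6.0 in CD163-deficient ones without LPS, and of -5.01 and -5.48 with LPS. Its difference of -0.53 had an error of 0.41, and the difference with LPS was -0.47. The processed intensities behind these levels were 20.5 and 19.6 without LPS and 41.0 and 26.6 with LPS, so most of the difference without LPS comes from the percentiles that were subtracted (910 and 1258). A lower Cd163 signal was therefore not detectable without LPS. The probe is shown because the level rests on these bases alone, with none marked.
Cd163: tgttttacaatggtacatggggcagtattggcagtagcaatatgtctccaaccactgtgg

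The identity of the cells was checked against marker genes. Of 20 markers of macrophages in general, all 20 met the level rule, among them Emr1 (now Adgre1), which encodes a surface antigen of macrophages, at 6.64 in wild-type cells and 6.61 in CD163-deficient ones. Gata6 was at -0.30 and 0.042, and Icam2, a surface protein of the large resident macrophages, at 3.84 and 3.38. Of markers of other blood cells, 3 of 11 for B cells, 7 of 16 for T or NK cells, 6 of 16 for neutrophils or eosinophils and 3 of 12 for dendritic cells met the level rule, as 43.0% of all genes did. Among them were Siglech, known from plasmacytoid dendritic cells (5.90 and 5.76), the neutrophil growth factor receptor gene Csf3r (5.84 and 5.68), the interleukin receptor gene Il7r (2.96 and 2.77) and the T cell receptor subunit gene Cd3e (0.73 and 0.34). The part of such cells in the results was not tested.

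Most genes differed little. The median difference was -0.07 with an SD of 0.30 across genes, and 95% of the genes lay between -0.61 and 0.60. A difference below 0 was found for 61.2% of the 12993 genes. At least 2-fold apart were 71 genes, 46 of them higher in CD163-deficient cells (0.354%) and 25 lower (0.192%). At least 1.5-fold apart were 361 higher (2.78%) and 372 lower (2.86%). The brighter the genes, the lower their median difference: it was -0.03 over the 4813 genes with a mean level from -2 to 0, -0.10 over the 2475 genes from 2 to 4, and -0.27 over the 472 genes of 6 or more, 92.8% of which were below 0. The same brightest genes had a median of 0.05 in the pair with LPS.

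**Figure D1:**
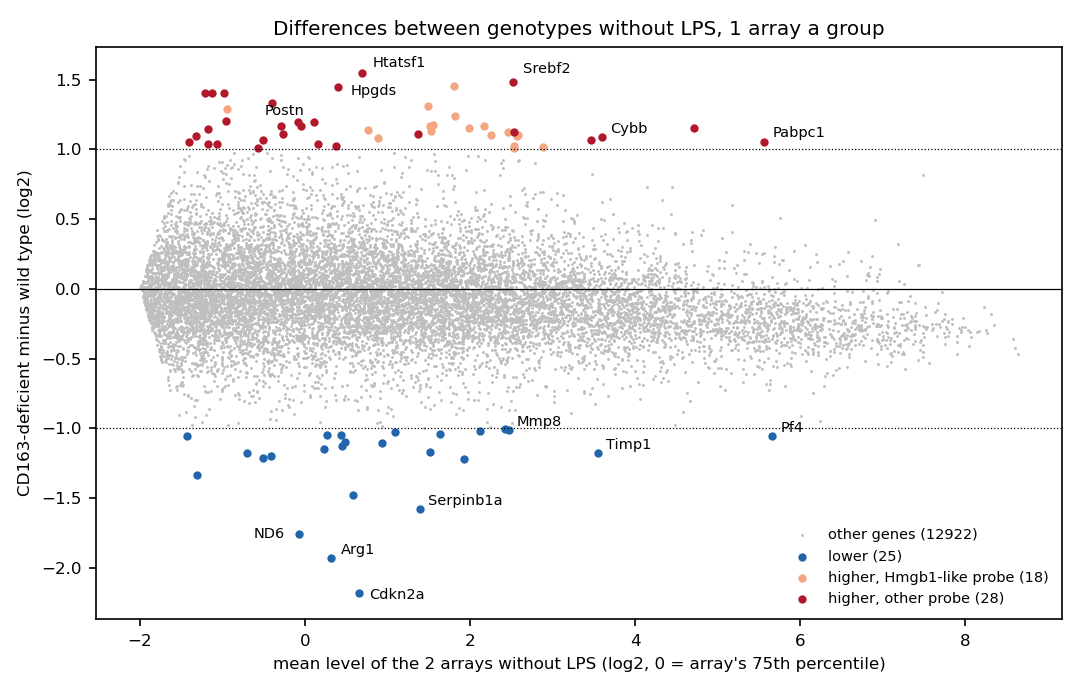
Difference between genotypes without LPS (log2, vertical axis) against the mean level of both arrays (log2, horizontal axis) for the 12993 genes at a level of -2 or more, 1 point a gene. Dotted lines mark 2-fold, with 25 genes below (blue) and 46 above, 18 of which were measured by probes like Hmgb1 (orange).

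Ribosomal and reference genes, listed as controls, were not level without LPS, and neither was the respiratory chain. All 31 ribosomal protein genes had a difference below 0, with a median of -0.34, and 22 of the 31 were higher with LPS (median 0.04). Of 33 nuclear genes of the respiratory chain 29 were lower (median -0.25), and 29 were higher with LPS (0.12). Of 20 reference genes 17 were lower (median -0.15), such as the actin gene Actb (-0.47) and the glycolytic gene Gapdh (-0.26). These are bright genes, and under quantile normalization, which levels brightness between arrays, the ribosomal median was -0.10, that of the respiratory chain -0.088 and that of the reference genes 0.01. Under that normalization the median of all genes was -0.03, and 10 list medians changed sign, that of the reference genes among them. Counts of lower genes in the lists that follow are to be set against these and against the 61.2% of all genes that were below 0, and the part of brightness in them was not tested beyond this alternative.

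The lowest differences among the genes that were lower in CD163-deficient cells were those of Cdkn2a, Arg1, ND6, Serpinb1a and Fam13c. Of these 25 genes, 23 have ordinary symbols and 2 have predicted names. All 7 of the 23 that have more than 1 probe kept the sign on each probe well above background. For Fam13c and F13a1 among them the other probe was not well above background, so it gave no check. In the pair with LPS 24 of the 25 genes were also below 0, with a median of -0.61, where 42.3% of all 12993 genes were below 0. At least 1.5-fold lower with LPS were 13 of the 25, against 1.69% of all genes. The exception in sign was ND6. The wild-type array without LPS was the highest of the 4 arrays for 18 of the 25, and for 38.2% of all genes. The 25 were picked for a wild-type level above the CD163-deficient one without LPS. This by itself favours such a rank, so the shares cannot be compared directly.

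Cdkn2a, which encodes the cell cycle inhibitors INK4a and ARF, had the lowest difference of the 12993 genes. Its level was 1.74 in wild-type cells and -0.44 in CD163-deficient ones without LPS, and 0.0037 and -1.45 with LPS, so CD163-deficient cells were 4.53-fold lower without LPS (-2.18) and lower by a difference of -1.45 with it. The probe lies at mm9 chromosome 4, 88920405 to 88920464. A second, dimmer probe of the gene gave -1.93 and -1.32. Both CD163-deficient arrays lay below both wild-type arrays. Of 19 CDK inhibitor and growth arrest genes that met the level rule, 7 were higher and 12 lower (median -0.14), and after Cdkn2a the next in size were Cdkn1c (0.78), another CDK inhibitor, and Gadd45g (-0.60), a stress-induced growth arrest gene.

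Arg1, the arginase that splits arginine into ornithine and urea, was at 1.27 in wild-type cells and -0.65 in CD163-deficient ones without LPS, 3.80-fold lower (-1.93, mm9 chromosome 10, 24636194 to 24636253). With LPS it was at 4.55 and 2.83, a difference of -1.72. Genotypes therefore differed by a like amount in both pairs, while LPS arrays were higher in each genotype. Its list, arginine metabolism and alternative activation, had 19 genes that met the level rule, 6 higher and 13 lower, with a median of -0.17 without LPS (-0.049 under quantile normalization) and -0.18 with it. The lectin genes Clec10a (-0.74 without LPS, -1.92 with LPS) and Mrc1, the mannose receptor (-0.34 and -0.86), were lower in both pairs. Nos2, the inducible nitric oxide synthase that uses the same amino acid, was at -1.80 and -1.48 without LPS (0.32) and at 3.80 and 5.21 with it (1.41).

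Serpin, coagulation and fibrinolysis genes, counted together, were mostly lower. The list also holds serpins with roles outside clotting, such as Serpinb1a. Of 22 listed serpin, coagulation and fibrinolysis genes that met the level rule, 20 were lower and 2 higher, with a median of -0.40 against -0.07 for all genes. At least 1.5-fold lower were 8 of the 22, and none was at least 1.5-fold higher, beside 2.86% and 2.78% of all genes. The median was -0.53 in the pair with LPS, where 17 of the 22 were lower, and -0.39 without LPS under quantile normalization. Serpinb1a, an inhibitor of neutrophil serine proteases, was at 2.18 in wild-type cells and 0.61 in CD163-deficient ones without LPS (-1.58, 2.99-fold), and at -1.26 and -1.82 with LPS. F13a1, the A subunit of clotting factor XIII, was at -0.11 and -1.28 without LPS (-1.17) and at -1.41 and -2.61 with it (-1.20). F2r, the thrombin receptor, had levels of 0.96 and -0.087 without LPS (-1.05) and a difference of -0.92 with LPS. Serpinb2, an inhibitor of plasminogen activators (-0.73 and -0.18), and Serpinf1, which encodes a secreted serpin (-0.80 and -0.56), were lower in both pairs.

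Matrix proteins, proteases and their inhibitors were lower for 28 of 34 genes, and for 10 by at least 1.5-fold, where 2.86% of all genes were. The list median was -0.36 without LPS (-0.23 under quantile normalization) and -0.43 with LPS. Timp1, an inhibitor of metalloproteinases, was at 4.14 in wild-type cells and 2.96 in CD163-deficient ones without LPS (-1.18) and at 5.66 and 4.96 with LPS (-0.70). Mmp8, a collagenase first known from neutrophils, was at 2.98 and 1.96 (-1.01), and with LPS at 1.85 and 0.53 (-1.32). Mmp13, another collagenase, differed by -0.74 and -0.82. The secreted serine protease gene Htra1 was at 1.48 and 0.38 without LPS (-1.10) and at 2.13 and 1.60 with LPS. Of the 6 higher genes of the list Postn, which encodes the matrix protein periostin, had the largest difference. It was higher in CD163-deficient cells in both pairs, at -0.88 in wild type against 0.29 without LPS (1.17), and at -1.58 against -0.34 with LPS (1.24).

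Several of these genes are also made by fibroblasts and by mesothelium, the lining of the cavity, and markers of those cells were mostly lower too. Of the 15 mesothelial and fibroblast markers that met the level rule, out of 28 on the array, 12 were lower and 3 higher (median -0.17, and -0.47 with LPS). The 3 higher were Postn, with the largest difference of the list (1.17, and 1.24 with LPS), the proteoglycan gene Dcn (0.35 and -0.58) and Col1a2. The summed level of all 28 was 7.72 in wild-type cells and 7.34 in CD163-deficient ones without LPS, and 7.62 and 7.04 with LPS. Col1a1, a chain of type I collagen, was at 4.73 and 4.07 (-0.66, and -0.70 with LPS), Wt1, a transcription factor of mesothelium, at 0.45 and -0.32 (-0.76), and Col1a2, the partner chain of Col1a1, at 4.88 and 4.99 (0.11). The defining mesothelial genes Msln (-3.41 and -2.86) and Upk3b (-2.47 and -2.48) were dim on both arrays, and all 28 markers were above background on both arrays. The contractile genes Tpm2 (-0.90 and -0.71), Myl9 (-0.89 and -0.64), Tagln (-0.60 and -0.80) and Acta2 (-0.49 and -0.66) were lower in both pairs too. In whole cultures fewer cells of a type and less RNA per cell cannot be told apart. The part of other cells in the matrix, serpin and clotting results was not tested.

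Dmwd and Dmpk, which adjoin on chromosome 7, were both lower. Dmwd, a gene for a protein with WD repeats, was at 2.53 in wild-type cells and 1.31 in CD163-deficient ones without LPS (-1.22), and at 1.52 and 0.91 with LPS (-0.61), with its probe at mm9 positions 19668055 to 19668114. Its neighbour Dmpk, the myotonic dystrophy protein kinase, was at 2.64 and 1.62 (-1.02, positions 19679066 to 19679125), and its other probe gave -0.98. The difference with LPS was -0.90.

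Chemokine and receptor genes among the lower ones included a CC and a CXC ligand. Ccl7, a ligand that draws monocytes, was at 1.02 in wild-type cells and -0.11 in CD163-deficient ones without LPS (-1.13) and at 3.93 and 3.41 with it. Pf4, platelet factor 4, which resident peritoneal macrophages also make, was at 6.18 and 5.13 (-1.05), and at 7.14 and 6.31 with LPS (-0.84). Of 14 chemokine genes that met the level rule, 11 were lower and 3 higher, with a median of -0.36 without LPS (-0.21 under quantile normalization) and -0.23 with LPS. They included the monocyte chemokine Ccl2 (-0.82 and -0.43), the B cell chemokine Cxcl13 (-0.69 and 0.14) and Ccl4 (-0.48 and -0.25). Olr1, a scavenger receptor for oxidised lipoprotein, was at 0.10 and -1.11 (-1.21) and at 2.10 and 1.03 with LPS (-1.07). The 24 scavenger and lectin receptors that met the level rule had no common direction, since 9 were higher and 15 lower (median -0.08, beside -0.07 for all genes, and 0.02 under quantile normalization). The bacterial scavenger receptor Marco was at 7.47 and 7.0 (-0.47) without LPS and differed by 0.13 with it.

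The remaining genes among the 15 with the largest lower differences have less connected roles. Fam13c was at 1.33 in wild-type cells and -0.15 in CD163-deficient ones without LPS (-1.48) and at -0.19 and -0.43 with LPS, so it was the wild-type array without LPS that stood apart. She, an adaptor with a Src homology domain, was at -0.64 and -1.97 (-1.34), and at -2.24 and -3.46 with LPS. Plac8, a small cysteine-rich protein of monocytes, was at 0.19 and -1.01 (-1.20, and -0.68 on its dimmer probe), and at 1.28 and 0.61 with LPS. Lrp12, a member of the lipoprotein receptor family, was at 2.10 and 0.93 (-1.17), and at 0.72 and 0.43 with LPS. Cdh2, the adhesion protein N-cadherin, was at 1.04 and -0.059 (-1.10, and -1.31 on its other probe), and at -0.15 and -0.90 with LPS. Smaller differences were found for Igfbp2, which binds insulin-like growth factors (-1.06, and -0.97 on its other probe), the small nucleolar RNA Rnu3b1 (-1.05), the villin-like gene Vill (-1.04) and the odorant receptor gene Olfr544 (-1.0).

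**Figure D2:**
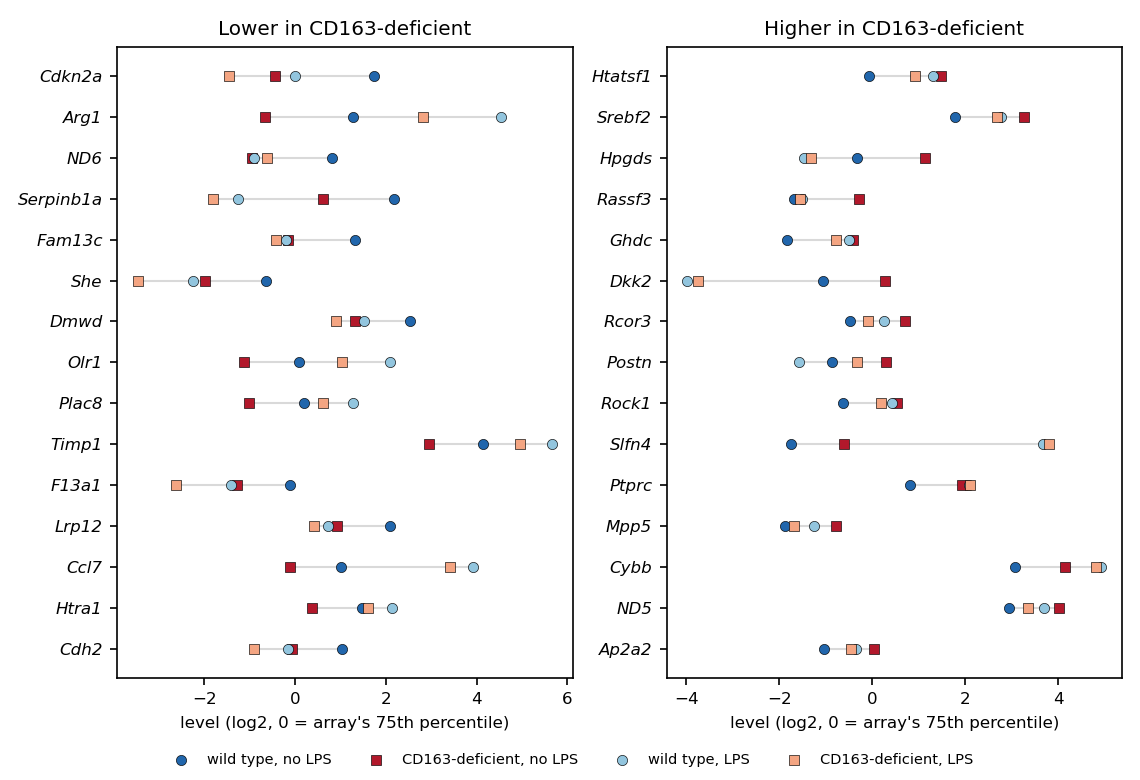
Levels (log2, 0 is the 75th percentile of the array) of the 15 named genes with the largest lower difference (left) and the 15 with the largest higher difference whose probes did not differ in sign (right), with 1 marker for each of the 4 arrays. On the right the wild-type array without LPS (dark blue) is mostly the lowest of the 4 markers, as for Htatsf1 at -0.077.

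The highest differences among the 46 genes that were higher in CD163-deficient cells with an ordinary symbol were those of Htatsf1, Srebf2 and Hpgds. With LPS 10 of the 46 were above 0 and 36 below, with a median of -0.31. Of the 36, 18 were measured by probes linked by shared sequence, described below, and are not separate signals. Without those 18, 10 of 28 were above 0 with LPS. At least 1.5-fold higher with LPS was 1 of the 46, Postn, where 0.446% of all genes were. The wild-type array without LPS was the lowest of the 4 arrays for 42 of the 46, and for 24 of the 28 left without the linked probes. The exceptions were Hpgds, Dkk2, Postn and Ceacam2. Among all 12993 genes it was the lowest for 21.6%. The 46 were picked for a wild-type level below the CD163-deficient one without LPS. This by itself favours such a rank, so the shares cannot be compared directly. Of the 46, 22 carry clone or predicted names, against 26.2% of all genes. Among the 24 with ordinary symbols, 4 had another well-detected probe of the opposite sign (Ampd3, Lpin2, Arid4a and Ceacam2) and are counted only.

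**Figure D3:**
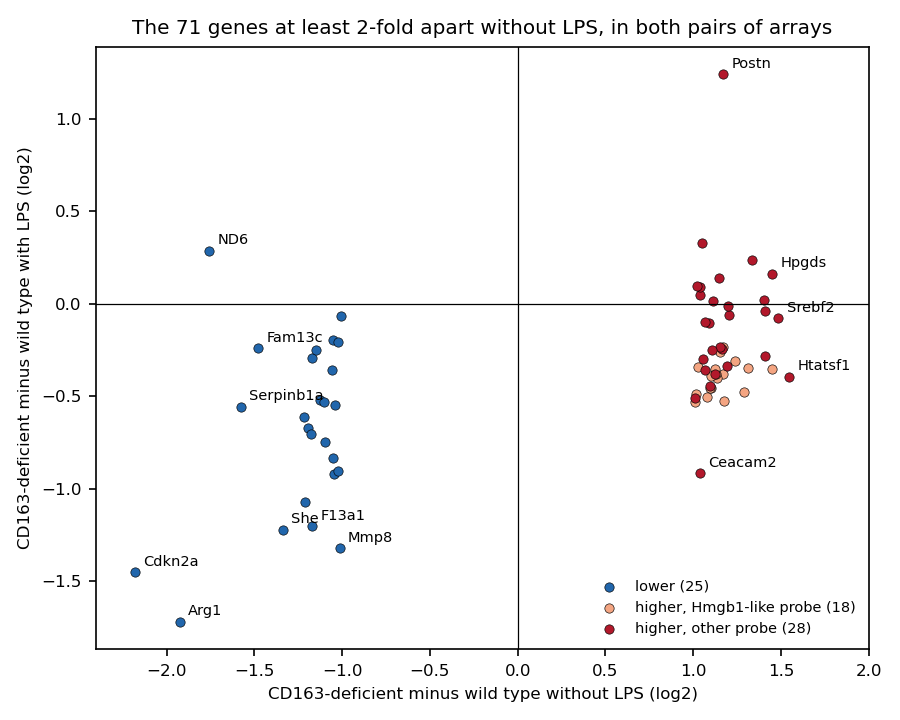
Genotype difference with LPS (log2, vertical axis) against that without LPS (log2, horizontal axis) for the 71 genes at least 2-fold apart without LPS, 1 point a gene. Of the 25 lower genes (blue) 24 lie below 0 with LPS, and of the 46 higher genes (red and orange) 10 lie above 0.

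Many of the higher genes were measured by copies of 1 sequence. Probes for 18 of the 46 were linked to each other and to a probe of Hmgb1 by runs of 16 or more identical bases, and the probe of 1 further clone shared such a run with that of Pabpc1. Hmgb1 encodes a DNA-binding protein of chromatin that acts as an alarm signal outside the cell, and the mouse genome holds many processed copies of it. Counted by shared sequence, the 46 genes came to 28, while no 2 probes of the 25 lower genes shared such a run. Among all 12993 genes, 14.3% had a probe that shared one with another gene's. The probes below are those with the longest runs shared with the Hmgb1 probe, and others of the 18 share as few as 5 bases with it and are linked through each other. Hmgb1 is the gene's own probe, in lower case, and in the others the capitals mark the longest run shared with it.
Hmgb1: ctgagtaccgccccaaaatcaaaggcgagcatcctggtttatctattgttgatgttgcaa
NAP059649-1: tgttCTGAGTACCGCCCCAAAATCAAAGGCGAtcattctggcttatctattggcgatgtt
A_55_P2157788: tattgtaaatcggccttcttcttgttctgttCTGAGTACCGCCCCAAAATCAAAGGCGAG
NAP062918-1: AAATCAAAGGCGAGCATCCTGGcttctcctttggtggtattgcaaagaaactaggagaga
NAP062435-1: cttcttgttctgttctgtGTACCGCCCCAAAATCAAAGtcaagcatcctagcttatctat

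On mm9 these probes are placed on several chromosomes by the array annotation, Hmgb1 on chromosome 5 (149861395 to 149861454), NAP059649-1 on chromosome 13 (36650587 to 36650646), A_55_P2157788 on chromosome 14 (54943948 to 54944007), NAP062918-1 also on chromosome 14 (56894961 to 56895020) and NAP062435-1 on chromosome 6 (114119150 to 114119209). The longest runs shared with the Hmgb1 probe were 28, 29, 22 and 20 bases. The 18 higher genes of this kind had values close together. They differed by 1.01 to 1.45 without LPS and by -0.53 to -0.24 with LPS. Their median level was 1.31 in wild-type cells and 2.55 in CD163-deficient ones without LPS, and 2.47 and 2.16 with LPS, so the wild-type array without LPS stood apart from the other three. Which transcript gave the signal cannot be told apart for probes linked in this way.

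Probes annotated to Hmgb1 itself disagreed with each other. Those at positions 471, 520 and 633 of 1 RefSeq transcript differed by 1.25, 0.97 and 0.93 without LPS. Further downstream, the probes at 1059 and 1062 differed by -0.25 and -0.19, the dim probe at 1432 by 0.96, and the probe at 2115 by 0.16. At position 471 the levels were 1.24 in wild-type cells and 2.49 in CD163-deficient ones, and at position 1059 they were 2.42 and 2.16. So the probes at 471 to 633 and those at 1059 and 1062, annotated to 1 transcript, gave opposite signs. The probes at 471 and 520 are linked by shared sequence to the copies described above. Which transcript gave their signal cannot be told, so a difference along the Hmgb1 transcript cannot be read from them.

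**Figure D4:**
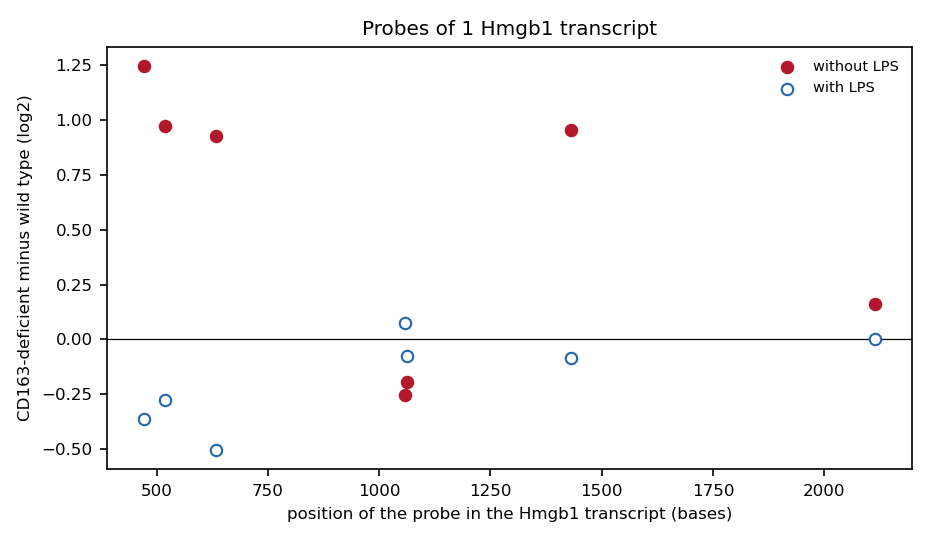
Genotype difference (log2, vertical axis) of the 7 probes annotated to 1 Hmgb1 transcript, without LPS (filled) and with LPS (open). The horizontal axis is their position in it (bases). Without LPS the probes at 471, 520 and 633 lie between 0.93 and 1.25, and those at 1059 and 1062 lie below 0.

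Upstream and downstream probes were also compared across RefSeq transcripts in general. Where 2 probes of 1 RefSeq transcript both met the level rule, the difference of the most upstream probe exceeded that of the most downstream by a median of 0.03 when they lay under 200 bases apart (440 transcripts), 0.13 from 200 to 500 bases (359 transcripts, 74.1% of them above 0), 0.17 from 500 to 1000 bases (331 transcripts, 67.7%) and 0.11 from 1000 to 2000 bases (328 transcripts). Beyond 2000 bases it was -0.04 (334 transcripts). In the pair with LPS the medians lay from -0.02 to 0.02 over the same bins. Up to 2000 bases the upstream probe was thus mostly the one further above, and the part of RNA quality in this and in the higher genes was not tested.

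Htatsf1, a factor of elongation and splicing, was at -0.077 in wild-type cells and 1.47 in CD163-deficient ones without LPS (1.55, 2.92-fold) and at 1.31 and 0.91 with LPS. Its other probe gave 1.29 without LPS, so both probes were more than 2-fold apart, but both were below 0 with LPS (-0.39 and -0.44). Rcor3, a corepressor of the CoREST family, was at -0.49 and 0.70 (1.20), and at 0.24 and -0.10 with LPS. Pabpc1, the cytoplasmic poly(A)-binding protein, was at 5.03 and 6.09 (1.06). Its probe shares 36 bases with that of the clone A_55_P2117487, which differed by 1.15, and the longest shared run is in capitals.
Pabpc1: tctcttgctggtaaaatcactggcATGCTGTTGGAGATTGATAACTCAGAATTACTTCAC
A_55_P2117487: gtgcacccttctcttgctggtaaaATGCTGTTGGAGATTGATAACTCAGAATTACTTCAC

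Srebf2, the transcription factor that drives cholesterol synthesis, had probes that differed in size but not in sign. The probe at position 3011 was at 1.77 in wild-type cells and 3.26 in CD163-deficient ones without LPS (1.49), and at 2.76 and 2.69 with LPS. The probe at position 3944 differed by 0.40. Of 26 genes of cholesterol synthesis and its control that met the level rule, 13 were higher and 13 lower, with a median of 0.04 (-0.03 with the most downstream probes). They included the synthesis enzymes Nsdhl (0.80), Dhcr7 (0.60) and Lss (0.56), and Insig1, which holds SREBP back in the endoplasmic reticulum (-0.87). In the pair with LPS those 4 genes differed by 0.01, 0.09, -0.07 and 0.05.

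Hpgds and Dkk2 were among the 4 higher genes for which the wild-type array without LPS was not the lowest. Hpgds, the haematopoietic prostaglandin D synthase, was at -0.32 in wild-type cells and 1.13 in CD163-deficient ones without LPS (1.45, 2.73-fold), while both arrays with LPS were lower, at -1.48 and -1.31. Among 22 prostaglandin and leukotriene genes 6 were higher and 16 lower (median -0.19). The cyclooxygenase gene Ptgs1 (-0.96 and -0.95) and the prostacyclin synthase gene Ptgis (-0.75 and -0.47) were lower in both pairs. Dkk2, a secreted modulator of Wnt signalling, was at -1.06 and 0.27 without LPS (1.34) and at -3.97 and -3.74 with LPS.

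Rassf3, a Ras association domain protein, was at -1.69 in wild-type cells and -0.28 in CD163-deficient ones without LPS (1.41), and at -1.51 and -1.55 with LPS, so the CD163-deficient array without LPS was the one that differed from the rest. Rock1, a kinase that acts on the actin cytoskeleton, was at -0.63 and 0.54 (1.17) at position 1440 of its transcript, and its probe at position 5268 differed by 0.20. Ptprc, which encodes the leukocyte antigen CD45, was at 0.81 and 1.93 (1.11), and at 2.07 and 2.09 with LPS. Cybb, the catalytic subunit of the phagocyte NADPH oxidase, was at 3.06 and 4.15 (1.09), and at 4.92 and 4.82 with LPS. Ghdc was at -1.83 and -0.42 (1.41), Mpp5, a scaffold protein of cell polarity, at -1.87 and -0.77 (1.09), and Ap2a2, a subunit of the clathrin adaptor, at -1.04 and 0.031 (1.07). With LPS these 3 genes differed by -0.28, -0.44 and -0.10. The small nuclear RNA Rnu2 (1.04), the chromatin gene Phf12 (1.04, and 0.40 on its other probe) and Baat1 (now Brat1, 1.02, and 0.09 on its other probe) were just past 2-fold.

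Interferon-stimulated genes leaned higher in both pairs. Of 42 that met the level rule, 28 were higher and 14 lower without LPS, with a median of 0.11 against -0.07 for all genes. At least 1.5-fold higher were 5 of the 42, and none was at least 1.5-fold lower, beside 2.78% and 2.86% of all genes. With LPS 38 of the 42 were higher (median 0.32). Slfn4, a Schlafen gene of myeloid cells, was at -1.75 in wild-type cells and -0.60 in CD163-deficient ones without LPS (1.15), and at 3.66 and 3.80 with LPS. Gbp7, a guanylate-binding GTPase, was at -1.92 and -0.87 (1.05, 0.33 with LPS). Gbp2 (0.61 and 0.45), Oas3, which senses double-stranded RNA (0.61 and 0.20), and Oasl2 (0.57 and 0.35) were higher in both pairs. Of 21 MHC class I genes 14 were higher (median 0.13, and 0.26 under quantile normalization), and 21 of 21 were higher with LPS (0.28), as with Tap1, the peptide transporter (0.34 and 0.58). Of 14 class II and costimulation genes 9 were higher (median 0.04), with the invariant chain gene Cd74 at 0.51 and 0.37.

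Haem and iron genes, the pathway of CD163 itself, had no common direction. Of 24 that met the level rule, 10 were higher and 14 lower, with a median of -0.05 without LPS, which became 0.045 under quantile normalization, and 0.14 with LPS. Of these 24, 2 were at least 1.5-fold higher and 1 lower, beside 2.78% and 2.86% of all genes. Slc40a1, the iron exporter ferroportin, was at 1.12 in wild-type cells and 2.03 in CD163-deficient ones without LPS (0.92), and at -2.59 and -1.66 with LPS (0.93). Cp, the ferroxidase ceruloplasmin, was at -0.55 and 0.39 (0.94) and differed by 0.38 with LPS. Tfrc, the transferrin receptor that takes iron up, was at 2.30 and 1.45 (-0.85), and its difference with LPS was -0.43. Mfsd7b (now Flvcr1), a haem exporter, differed by -0.56 and -0.20, and Ncoa4, which leads ferritin to the lysosome, by -0.46 and -0.25. The exporter and the ferroxidase were thus higher and the importer lower in both pairs, each by less than 2-fold.

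The list of cell cycle genes held 39 that met the level rule, 33 of them lower, with a median of -0.24 without LPS and -0.23 with LPS. At least 1.5-fold lower without LPS were 4 of the 39, where 2.86% of all genes were. Rrm2, a subunit of ribonucleotide reductase, was at 1.19 in wild-type cells and 0.33 in CD163-deficient ones (-0.86, and -0.47 with LPS). The cyclin genes Ccnd2 (-0.85 and -0.22) and Ccnd1 (-0.51 and -0.34) were lower too, as was Uhrf1, which maintains DNA methylation (-0.55 and -0.51). Cdkn2a, which holds the cycle back, was lower along with them.

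The markers of large peritoneal macrophages that met the level rule were lower in 16 of 26 cases (median -0.11, and -0.19 with LPS), a share close to the 61.2% of all genes, and their median was -0.023 under quantile normalization and -0.24 with a level minimum of -3. Those of small macrophages or monocytes were lower in 9 of 11 cases (median -0.23, and -0.25 with LPS). Cd5l, a secreted survival factor of macrophages, was at 6.72 in wild-type cells and 5.77 in CD163-deficient ones (-0.95, and -1.10 with LPS), and Vsig4, a complement receptor, at 5.64 and 4.98 (-0.67 and -0.75). Both are on the list of large peritoneal macrophages, where 10 genes were higher. Among these Tgfb2, a growth factor gene, had the largest difference (0.82 and -0.06). Folr2, a folate receptor of macrophages, differed by -0.89 and -0.62. Markers of macrophages in general were higher in 11 of 20 cases (median 0.05, and 0.23 under quantile normalization), among them Mertk, a receptor for dying cells, at 1.53 and 2.39 (0.86 and 0.50), and the lysozyme gene Lyz2 (0.82 and 0.29). Tyro3, a receptor of the same family as Mertk, was lower (-0.88 and -0.51), and of 27 complement and efferocytosis genes 12 were higher and 15 lower (median -0.09, and 0.13 under quantile normalization).

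**Figure D5:**
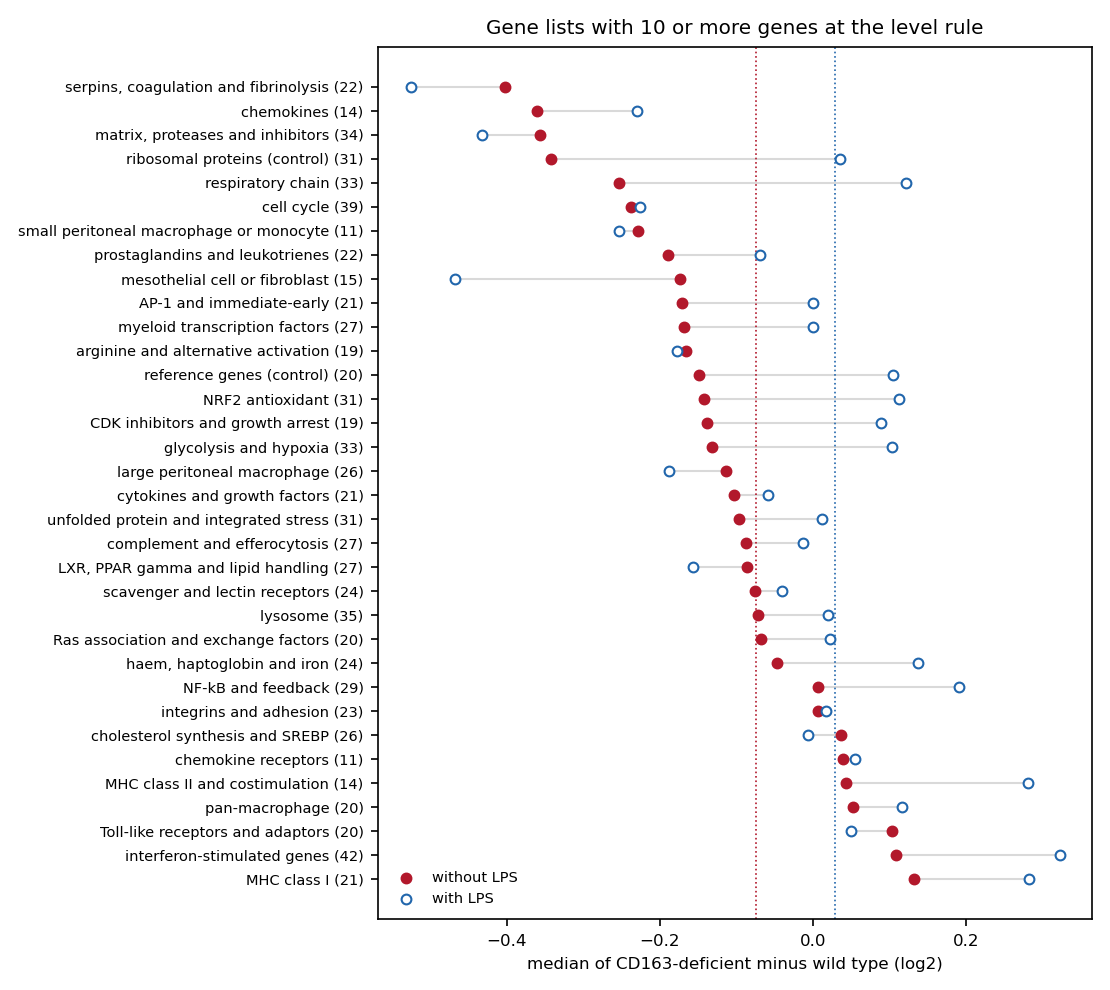
Median genotype difference (log2) of gene lists with 10 or more genes at the level rule (their number in brackets), without LPS (filled) and with LPS (open). Dotted lines mark the median of all 12993 genes, -0.07 without LPS (red) and 0.03 with LPS (blue), and the lists of serpins and matrix lie to the left of both.

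Genes of the mitochondrial genome had no common direction. Of its 13 protein-coding genes 8 were higher and 5 lower without LPS. ND5, a subunit of respiratory complex I, was at 2.94 in wild-type cells and 4.01 in CD163-deficient ones (1.07, and -0.36 with LPS), and ND1 (0.83), ATP8 (0.73) and ND2 (0.60) were the next in size. ND6, another complex I subunit and the one protein-coding gene on the opposite strand, was at 0.81 and -0.95 (-1.76), and at -0.91 and -0.62 with LPS. The ND5 and ND6 probes lie next to each other, at 13402 to 13461 and 13552 to 13611 of the mitochondrial genome, and differed by 1.07 and -1.76. The 3 cytochrome oxidase genes differed by -0.18, -0.25 and -0.18.

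Of 21 AP-1 and immediate-early genes 13 were lower (median -0.17), a share near the 61.2% of all genes, and 5 of them at least 1.5-fold, where 2.86% of all genes were. They included Klf2, a transcription factor that restrains inflammation, at 0.45 and -0.33 (-0.77), Fosl2 at 1.75 and 1.02 (-0.73) and Egr1 at -0.22 and -0.87 (-0.65). With LPS those 3 genes differed by -0.12, -0.13 and -0.048. Of 27 myeloid transcription factors 17 were lower, again near the share of all genes (median -0.17, and -0.076 under quantile normalization), with the lowest differences for Id1 (-0.89 and -0.55) and Id2 (-0.71 and -0.21), which block other factors from DNA. NF-kB and feedback genes were split, 15 higher and 14 lower (median 0.01), and lysosomal genes had a median of -0.07, equal to that of all genes (0.095 under quantile normalization).

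Among genes at least 2-fold apart, those just inside the level rule were She (lower level -1.97), Igfbp2 (-1.96) and Gbp7 (-1.92). Those just outside were Tnfrsf21, the death receptor DR6 (lower level -2.03, difference 1.15), Birc3, an inhibitor of apoptosis (-2.10 and 1.0), and Lpcat1, a phospholipid enzyme (-2.25 and 1.27). Below the rule 11480 genes were well above background on both arrays, and 2.82% of them were at least 2-fold apart (160 higher and 164 lower), against 0.546% of the 12993. The 5 dim genes with the largest lower differences were Dytn (-3.19), Olfr1026 (-2.97), Spink12 (-2.62), Wbp2nl (-2.37) and Rtl1 (-2.17), and those with the largest higher differences were Clec5a (2.40), Ceacam12 (2.35), Zfp354b (2.28), Rbm41 (2.0) and Krt17 (1.97). With LPS only Rtl1 among those 5 lower genes was below 0 (-1.24), and of the 5 higher ones Ceacam12 and Krt17 were above 0 (0.36 and 1.17).

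Across all 12993 genes the genotype difference without LPS and that with LPS, which share no array but come from 1 slide and the same 2 genotypes, had a Pearson correlation of 0.09 and a Spearman correlation of 0.05. This is across genes, which are not independent replicates. Both CD163-deficient arrays lay below both wild-type arrays for 5 of the 25 lower genes, against 7.2% of all genes, and above both for 4 of the 46 higher genes, against 5.63% of all genes. Both sets were picked by the difference without LPS, so the shares of all genes are not a like reference.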

How the data were processed

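Total RNA of each culture was labelled with Cy3 and hybridised to 1 Agilent array, with all 4 arrays on 1 slide. Per the file headers, the deposited spot intensity is the processed signal of Agilent Feature Extraction 10.7.1.1, with background removed inside the array and no adjustment between arrays. A different version, 9.5.1.1, stands in the submitters' processing notes. The value table the authors deposited holds intensity on a linear scale that matched a quantile normalization, and served as an alternative. From the 43020 spots that are no controls, 39429 probes were averaged, log2 was taken, each array's 75th percentile was subtracted, and the brightest probe stood for each of 30222 genes. Positions are on mm9, per the array annotation. A RefSeq table of a later assembly gave current symbols and no coordinates.

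The named genes are those at least 2-fold apart with an ordinary symbol, without those whose probes differed in sign, the largest 8 of a list, the 3 on each side of the level minimum and the 5 dim genes of each direction. Cd163, Hmgb1, other mitochondrial genes and some markers outside this rule were named too. Such markers were Gata6, Emr1, Col1a2, Msln and Upk3b. Members and lists were chosen with earlier results of these data known. With 1 array per group no test was made and no p-value is given. The precision is limited by the number of arrays. Alternatives were normexp background correction (offset 50, limma 3.58.1 in R 4.3.3), quantile normalization, other scaling, probe and level rules, and 2 chosen after seeing the data (shared sequences counted once, and the most downstream probe). Computation used Python 3.11.15 and pandas 2.3.3. Some genes and gene lists are not reported here.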

Additional observations from a re-analysis of the deposited data

Results flagged for a closer look

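Ceacam2, an adhesion protein of the CEA family, had a genotype difference of 1.04 without LPS and of -0.92 with LPS on its brightest probe, so that CD163-deficient cells were higher in 1 pair and lower in the other. The single arrays were at -1.69 in wild-type and -0.65 in the CD163-deficient cells without LPS, and at -1.83 and -2.75 with LPS. The gene's other probe was dim and differed by -0.29 and -0.04. The difference between the pairs was not tested.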

How the results depend on the processing

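None of the 47 genes with an ordinary symbol that were at least 2-fold apart, the 4 with probes of opposite sign included, changed sign under any alternative that could give it a value. List medians did, 10 of 39 under quantile normalization and 10 of 39 in the deposited table, such as the reference genes (-0.15 to 0.01 and 0.04). Of the 47, 45 stayed so under quantile normalization, 43 in the deposited table and 34 under normexp background correction, and with the most downstream probe 44 of 46 did. The median of the arginine and alternative activation list moved from -0.17 to -0.049 under quantile normalization and -0.042 in the deposited table. The matrix list moved from -0.36 to -0.23 and -0.22, and the chemokine list from -0.36 to -0.21 and -0.20, and to -0.24 with all genes well above background. Over all lists the median moved by 0.1 or more for 16 of 39 under quantile normalization and for 17 of 39 in the table. The count of higher genes was 46, and 72 with a level minimum of -3, 206 (with 189 lower, against 25) for all genes well above background, and 28 with shared sequences counted once. Higher genes were 64.8% of those at least 2-fold apart, 52.2% among all well above background and 73.4% in the table. No paired analysis was possible because each group has 1 array. For the same reason no array could be left out. Signal over background limits the dim genes, where 2-fold differences were more frequent.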

Other observations

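Toll-like receptor and adaptor genes had 14 of 20 members higher without LPS (median 0.10) and a median of 0.05 with LPS, and 7 of 11 chemokine receptor genes were higher (median 0.04 without LPS and 0.06 with it). Of 31 NRF2 antioxidant genes 19 were lower without LPS (median -0.14, and 0.04 under quantile normalization), a share near the 61.2% of all genes. With LPS 26 of the 31 were higher (median 0.11), where 42.3% of all genes were below 0. The reference genes were higher there for 17 of 20 (median 0.11).

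Markers of mast cells met the level rule for 1 of 10 genes, and those of red cells or platelets for 1 of 14, where 43.0% of all genes met it.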
